A study of Mus musculus with 16 samples.

Results

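The subject here is 3 mouse hearts in which Atf3, the gene of a stress-induced transcription factor, stood above a log2 value of 8 although the animals had only had a sham operation. They were chosen by the measured Atf3 value alone, 3 of the 8 sham hearts in a series of 16 hearts, and they are called the high-Atf3 hearts below. The class held cKO sham replicate 1, control sham replicate 3 and control sham replicate 4. The other 5 sham hearts were cKO sham replicates 2, 3 and 4 and control sham replicates 1 and 2. Where values of single hearts are listed, they follow these 2 orders. Another 8 hearts had transverse aortic constriction (TAC), a narrowing of the aorta that makes the left ventricle pump against pressure, and none of them exceeded the threshold. The study crossed surgery with genotype: conditional knockout of Zbtb17 (cKO), a zinc finger transcription factor gene, and corresponding controls. Every group held 4 male C57BL/6 mice, which entered surgery at 8 to 10 weeks of age, and hearts were taken 4 weeks later. The labels give neither the driver of the knockout nor the part of Zbtb17 that is deleted.

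ATF3 belongs to the ATF/CREB family of basic leucine zipper factors. Its gene is expressed at a low level in resting tissue and is switched on quickly by mechanical, oxidative, metabolic and inflammatory stress, often together with Fos, Jun and Egr family genes, heat shock protein genes and secreted matricellular genes. In the heart it is known as an early response gene to stretch, catecholamines and ischaemia.

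Expression was measured on 1 Affymetrix Mouse Gene 1.0 ST array per heart, and all values are log2 values as deposited, so that a difference of 1 is a doubling of signal. They ran from 2.34 to 14.35 over 35556 probe sets, and array medians lay between 4.85 and 4.97. Spearman correlations over all probe sets were 0.983 to 0.986 among the high-Atf3 hearts, 0.975 to 0.986 between them and the other sham hearts, and 0.972 to 0.985 among the other sham hearts. Zbtb17 was at 6.51, 6.38 and 6.35 in the high-Atf3 hearts and at 6.62, 6.47, 6.49, 6.19 and 6.50 in the other sham hearts. The genotypes overlapped at this probe set, which does not check the genotype labels because the deleted part is not given. Summed linear signal of 12 ventricular myocyte markers was 98680 to 101900 in the high-Atf3 hearts and 94770 to 105700 in the other sham hearts.

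Atf3 has a single probe set, and its values chose the classes, so they are a description and were not tested. It stood at 9.58, 10.18 and 8.45 in the high-Atf3 hearts, against 7.26, 6.28, 6.69, 6.38 and 6.13 in the other sham hearts. The TAC hearts had a lowest value of 6.15, a median of 6.28 and a highest value of 6.79. The heart just inside the threshold was control sham replicate 4, at 8.45, and the one just outside was cKO sham replicate 2, at 7.26. The gap between these was wider than the whole spread of the 8 TAC hearts. The class averaged 9.40 ± 0.88 (SD, n = 3) and the other sham hearts 6.55 ± 0.45 (SD, n = 5). Both genotypes were represented, with 1 of 4 cKO and 2 of 4 control sham hearts in the class.

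The sequences before the start sites of Atf3 and of 5 genes that were higher with it are shown to let the reader see which of the letters read by stress-activated factors they hold. They are the 250 bases before the RefSeq start (build GRCm38.p6), all on the minus strand: Atf3 chr1:191183334-191183583, Ier5 chr1:155099637-155099886, Slc38a2 chr15:96699729-96699978, Hspa1a chr17:34972157-34972406, Adamts1 chr16:85803114-85803363 and Ccn1 chr3:145649986-145650235. Capitals mark matches to the ATF/CREB core site (CGTCA, or TGACG on the other strand) and to the heat shock element (GAANNTTC or TTCNNGAA), searched on both strands.
Atf3: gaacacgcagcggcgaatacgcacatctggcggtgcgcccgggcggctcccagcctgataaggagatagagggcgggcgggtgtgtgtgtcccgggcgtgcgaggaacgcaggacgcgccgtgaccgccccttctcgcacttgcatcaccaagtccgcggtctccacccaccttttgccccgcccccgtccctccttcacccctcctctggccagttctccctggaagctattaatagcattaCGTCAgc
Ier5: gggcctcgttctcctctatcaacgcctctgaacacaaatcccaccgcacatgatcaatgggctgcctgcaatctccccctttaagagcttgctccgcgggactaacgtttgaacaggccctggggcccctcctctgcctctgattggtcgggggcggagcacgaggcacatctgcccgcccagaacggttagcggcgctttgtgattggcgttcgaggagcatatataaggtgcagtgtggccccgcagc
Slc38a2: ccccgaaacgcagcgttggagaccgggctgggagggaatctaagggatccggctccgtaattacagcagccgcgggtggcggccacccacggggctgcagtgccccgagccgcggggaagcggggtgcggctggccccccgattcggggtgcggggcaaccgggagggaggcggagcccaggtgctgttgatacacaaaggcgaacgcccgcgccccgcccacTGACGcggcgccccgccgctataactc
Hspa1a: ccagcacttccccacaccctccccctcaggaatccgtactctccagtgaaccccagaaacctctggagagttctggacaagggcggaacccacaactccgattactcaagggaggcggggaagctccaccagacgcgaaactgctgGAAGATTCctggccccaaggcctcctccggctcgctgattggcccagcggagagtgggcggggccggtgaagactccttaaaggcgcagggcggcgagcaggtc
Adamts1: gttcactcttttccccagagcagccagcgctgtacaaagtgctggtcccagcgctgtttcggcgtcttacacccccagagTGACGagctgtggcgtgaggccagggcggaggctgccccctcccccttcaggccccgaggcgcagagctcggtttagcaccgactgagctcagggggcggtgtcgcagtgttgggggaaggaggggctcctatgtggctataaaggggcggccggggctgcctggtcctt
Ccn1: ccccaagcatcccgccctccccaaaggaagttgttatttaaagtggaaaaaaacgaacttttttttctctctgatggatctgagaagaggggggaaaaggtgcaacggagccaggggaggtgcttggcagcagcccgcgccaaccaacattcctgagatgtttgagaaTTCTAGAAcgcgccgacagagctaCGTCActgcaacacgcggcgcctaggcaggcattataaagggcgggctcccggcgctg
The Atf3 window ended in a CGTCA at 7 to 3 bases before the start. Hspa1a held GAAGATTC at 104 to 97 bases before its start, and Ccn1 held TTCTAGAA at 82 to 75 and CGTCA at 58 to 54. Slc38a2 and Adamts1 each held TGACG, at 27 to 23 and at 170 to 166, and the Ier5 window held neither motif. A match is a match of letters and no evidence of binding.

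Probe sets called between the high-Atf3 hearts and the other sham hearts were mostly higher, while differences over all genes were balanced around 0. Of 21332 probe sets tested without Atf3, 66 were higher (0.309%) and 10 lower (0.0469%) at an adjusted p under 0.05, which is 0.356% in all. With 1 probe set per named gene, 55 of 13669 genes were higher (0.402%) and 9 lower (0.0658%), and the median difference over all genes was -0.006. The classes were cut from Atf3 in these same hearts, so each p describes an association with that split and not the effect of a treatment. The 3 values of all 55 higher genes lay above all 5 other sham values, which largely follows from their choice by the same contrast. For 52 of these genes the 3 values also lay above all 8 TAC values. Hbegf, Lyve1 and Ehd1 were the exceptions (the last 2 named after their values were seen). Over all genes, 3.58% (2.92% of probe sets) had their 3 values above the other 5 sham values and 1.19% above all other 13, and for the lower side these shares were 2.4% (2.19% of probe sets) and 0.761%. Single hearts weighed on the number of calls. The 76 called probe sets became 16 without cKO sham replicate 1, 31 without control sham replicate 3 and 45 without control sham replicate 4. They became 36, 37, 46 and 42 without cKO sham replicate 3, cKO sham replicate 4, control sham replicate 1 and control sham replicate 2, and 146 without cKO sham replicate 2, the sham heart next below the threshold. In a fit of the 8 sham hearts alone the count was 25. Of the 64 named genes called, 12 stayed past the threshold whichever sham heart was left out, and the others lost the call without at least 1 heart.

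**Figure D1:**
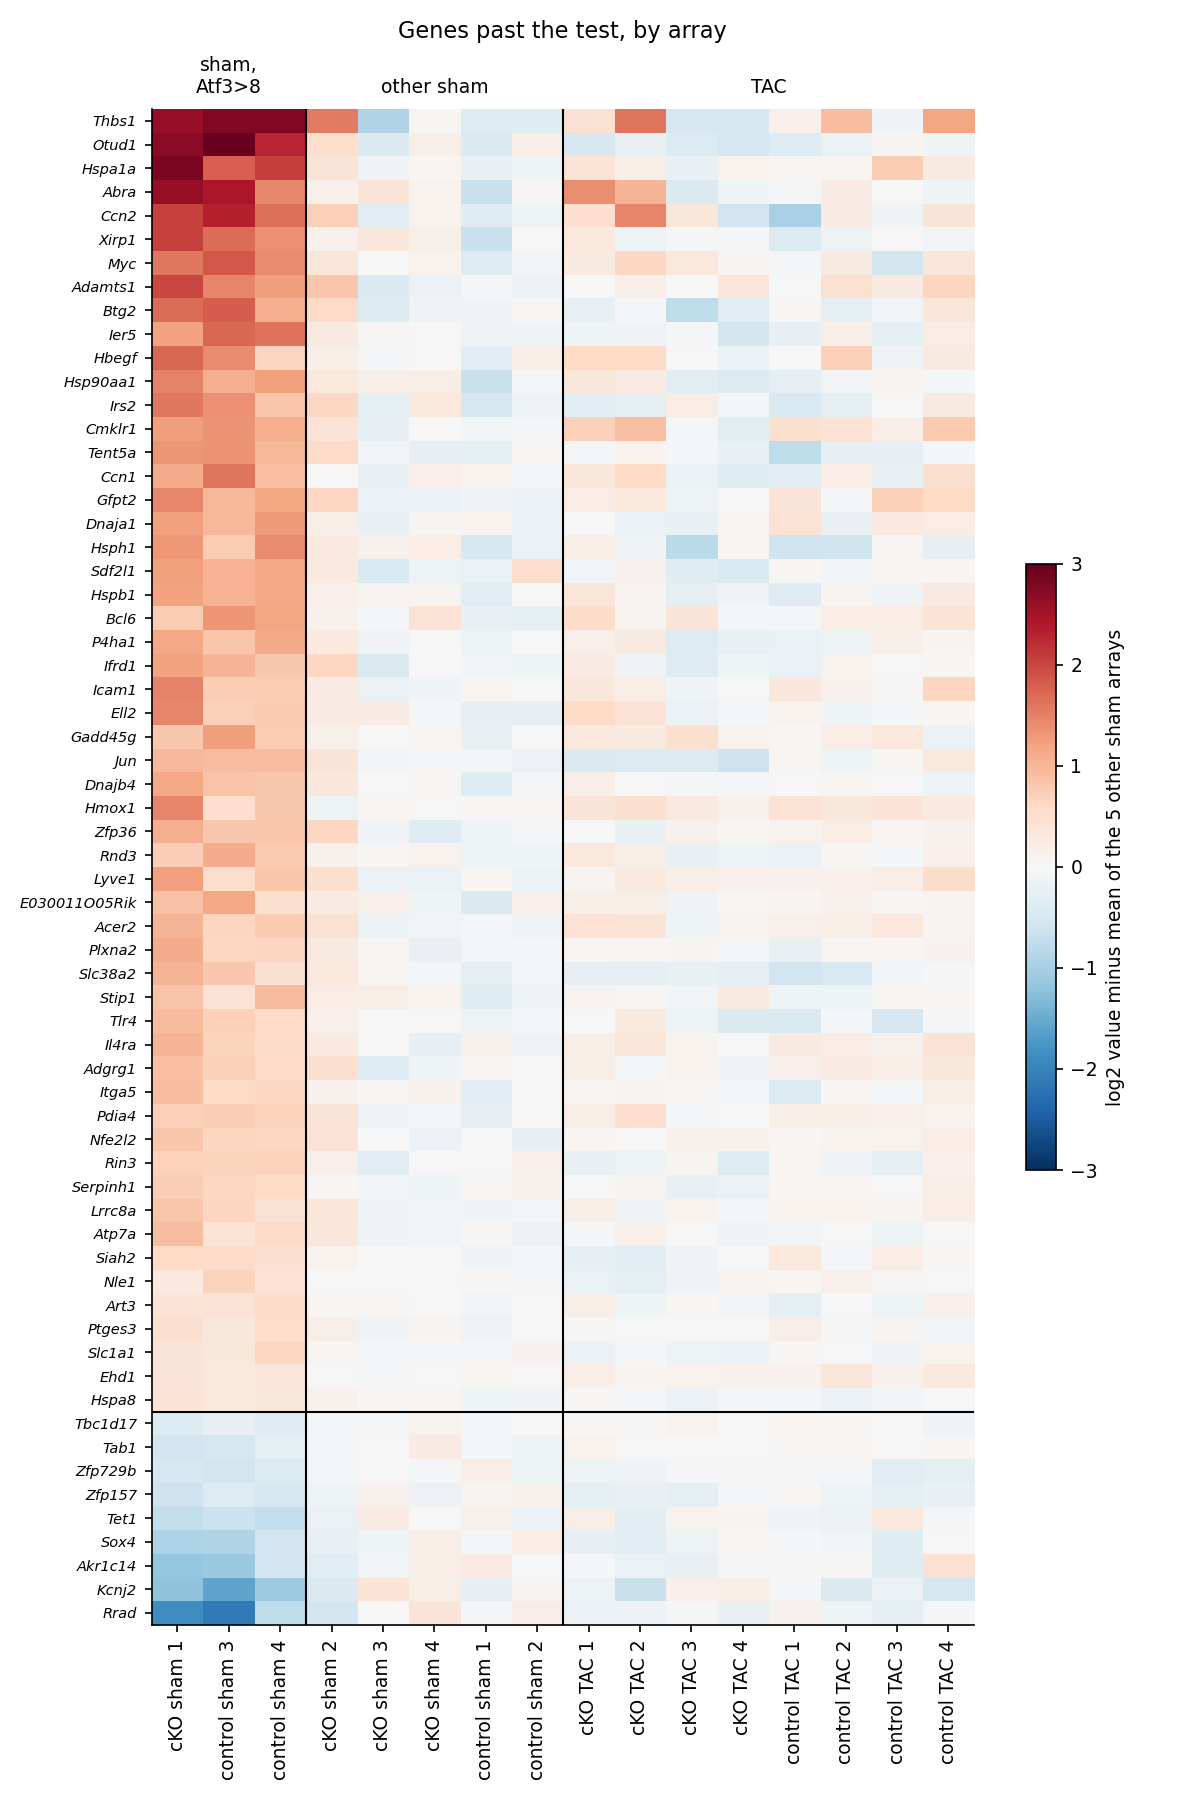
Each row is 1 of the 55 higher and 9 lower genes and each column 1 heart, with colour giving the log2 value minus the mean of the 5 other sham hearts. The 3 columns at the left, the high-Atf3 hearts, are red in every row above the line and blue in every row below it, and cKO sham replicate 2 is faintly red in many upper rows.

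The gene lists below were chosen with earlier results of these data known, so their counts are descriptions. Beside them stand the shares of all genes, 0.402% called higher, 3.58% above the other 5 and 1.19% above all other 13. The transcription factors of the immediate early class were higher in part. Of 28 tested members 26 had a positive difference and the median was 0.35, 3 passed the test upward (Myc, Ier5 and Jun) and 11 had all 3 high-Atf3 values above the other 5. Myc, a growth-promoting transcription factor, was at 6.75, 7.02 and 6.57 in the high-Atf3 hearts, against 5.52, 5.17, 5.26, 4.76 and 5.08 in the other sham hearts. The lowest high-Atf3 value was a full unit above the highest other sham value, and TAC hearts reached 5.77. The difference was 1.62 ± 0.20 (SE; adjusted p = 0.0014). Ier5, an immediate early response gene, was at 7.12, 7.65 and 7.54 in the high-Atf3 hearts, against 6.19, 5.95, 5.90, 5.77 and 5.78 in the other sham hearts. Its highest TAC value was 6.14, and the difference was 1.52 ± 0.16 (SE; adjusted p = 0.000381). Jun, a subunit of the AP-1 factor and a partner of ATF3, was nearly the same in all 3 high-Atf3 hearts, at 9.56, 9.52 and 9.51 in the high-Atf3 hearts, against 8.98, 8.50, 8.52, 8.53 and 8.39 in the other sham hearts. The difference was 0.95 ± 0.12 (SE; adjusted p = 0.00194).

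Other early response genes did not pass, among them Fos, Egr1, Nr4a1 and Junb. Fos, the other classic AP-1 subunit, was at 5.36, 5.42 and 5.12 in the high-Atf3 hearts, against 4.87, 5.10, 5.02, 4.76 and 5.07 in the other sham hearts. All 3 values were above the other 13, but by little, and the difference of 0.34 had an adjusted p of 0.333. Egr1, a zinc finger factor induced within minutes of stimulation, was at 7.17, 8.36 and 7.77 in the high-Atf3 hearts, against 7.60, 7.39, 7.33, 7.30 and 7.79 in the other sham hearts, and the classes overlapped. Nr4a1, an orphan nuclear receptor, ranged from 7.59 to 8.03 in the high-Atf3 hearts and from 6.69 to 8.59 in the other sham hearts, with a difference of 0.09. Junb differed by 0.20 (adjusted p = 0.66). Feedback inhibitors of MAP kinase and cytokine signalling had 2 of 30 members called upward and a median of 0.15. These were Btg2, an antiproliferative cofactor, which differed by 1.52 ± 0.22, and Zfp36, which drives decay of AU-rich messenger RNAs and differed by 0.91 ± 0.16 (SE). Dusp1, a MAP kinase phosphatase, overlapped between the classes, at 9.46 to 9.67 in the high-Atf3 hearts and 9.12 to 9.73 in the other sham hearts.

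**Figure D2:**
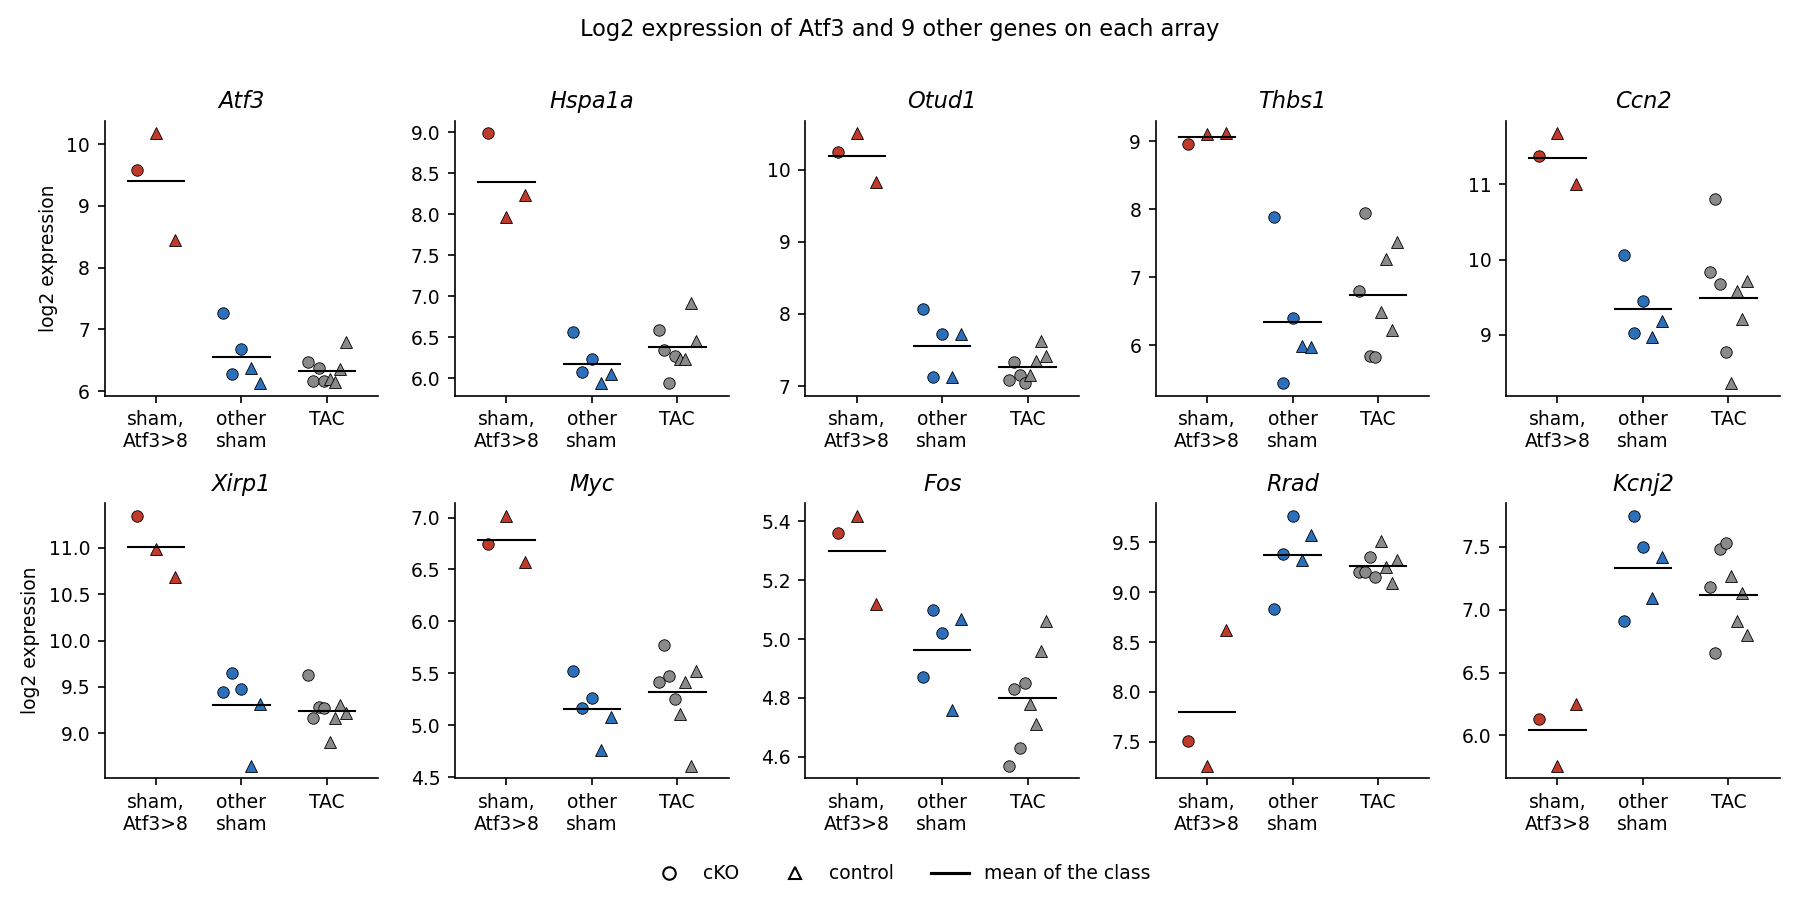
Log2 values of Atf3 and 9 other genes in each heart, by class (sham with Atf3 above 8, other sham, TAC), with circles for cKO, triangles for control and a line at the class mean. Atf3 chose the classes. The 3 red points of Hspa1a, Otud1, Thbs1, Ccn2, Xirp1, Myc and Fos lie above and those of Rrad and Kcnj2 below all other points, and Fos is on a much narrower scale.

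Among lists chosen with earlier results of these data known, that of cytosolic heat shock proteins and cochaperones held the most calls. Of 26 tested members 9 passed upward, against 0.402% of all genes, and none downward. A positive difference was found in 24, and the median was 0.41. For 17 members the 3 high-Atf3 values lay above the other 5 (3.58% of all genes), and for 12 above all other 13 (1.19% of all genes). Hspa1a, the inducible Hsp70 chaperone, was at 8.99, 7.96 and 8.24 in the high-Atf3 hearts, against 6.56, 6.07, 6.23, 5.94 and 6.05 in the other sham hearts. TAC hearts ended at 6.92, so no heart outside the class came near it, and the difference was 2.23 ± 0.22 (SE; 4.68-fold; adjusted p = 0.000199). Hspa1a has a nearly identical neighbour, Hspa1b, and the split of signal between the pair is uncertain. Hsp90aa1, the inducible Hsp90, was at 11.38, 10.98 and 11.14 in the high-Atf3 hearts, against 10.21, 10.07, 10.12, 9.23 and 9.87 in the other sham hearts. The classes did not overlap, and the differences of its 3 probe sets ran between 1.203 and 1.346. Hspb1, the small heat shock protein Hsp27, was at 11.06, 10.91 and 11.03 in the high-Atf3 hearts, against 10.01, 9.96, 9.95, 9.55 and 9.84 in the other sham hearts. Its difference was 1.14 ± 0.15 (SE; adjusted p = 0.00236), and its highest TAC value was 10.23. Dnaja1, an Hsp40 cochaperone of Hsp70, was at 10.00, 9.76 and 10.04 in the high-Atf3 hearts, against 8.97, 8.56, 8.86, 8.88 and 8.59 in the other sham hearts, a difference of 1.16 ± 0.14 (SE). The remaining calls were Hsph1 (a nucleotide exchange factor of Hsp70) at 1.16, the Hsp40 protein Dnajb4 at 0.94, the Hsp70-Hsp90 adaptor Stip1 at 0.75, the collagen chaperone Serpinh1, which resides in the endoplasmic reticulum although the list holds it, at 0.65 and the constitutive Hsp70 Hspa8 at 0.35. Hspa8 had the smallest difference of the 9 in the probe sets read here. Its other probe sets differed by 0.35 and 0.58 and did not pass (adjusted p = 0.0616 and 0.663). Hspb1, Hsph1, Stip1, Serpinh1 and Hspa8 are named here as called members, after their values were seen.

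In the list of the endoplasmic reticulum response, which does not hold Serpinh1, fewer members were called. Of 28 tested members 22 were positive with a median of 0.23, and 2 were called upward, against 0.402% of all genes. In 8 the 3 high-Atf3 values lay above all other 13, against 1.19% of all genes. Sdf2l1, a component of the chaperone complex of the endoplasmic reticulum, was at 7.77, 7.57 and 7.69 in the high-Atf3 hearts, against 6.84, 6.07, 6.38, 6.33 and 7.07 in the other sham hearts. Pdia4, a protein disulfide isomerase, was at 8.57, 8.59 and 8.55 in the high-Atf3 hearts, against 8.25, 7.76, 7.79, 7.62 and 7.87 in the other sham hearts. The differences were 1.14 ± 0.18 and 0.71 ± 0.13 (SE), and the classes did not overlap for either gene. Hspa5, the master chaperone of this compartment also called BiP, was at 11.57, 11.26 and 11.36 in the high-Atf3 hearts, against 11.21, 11.10, 11.22, 10.73 and 11.17 in the other sham hearts. Its 3 values were the highest of all 16, but the difference of 0.31 did not pass (adjusted p = 0.397). Among 28 targets of the integrated stress response, in which ATF4 acts upstream of ATF3, 1 passed and the median was 0.09. That gene was Slc38a2, a neutral amino acid transporter, at 11.43, 11.22 and 10.91 in the high-Atf3 hearts, against 10.74, 10.48, 10.36, 10.13 and 10.38 in the other sham hearts. The difference was 0.77 ± 0.14 (SE; adjusted p = 0.0266), with no overlap. Atf4 itself was at 7.21, 7.32 and 6.94 in the high-Atf3 hearts, against 6.63, 6.88, 6.70, 6.60 and 6.57 in the other sham hearts, a difference of 0.48 with an adjusted p of 0.0846. The death-linked ATF4 targets Ddit3 and Trib3 differed by 0.32 and 0.02, and Ppp1r15a, which reverses the translation block, by 0.26. None of these 3 passed, and their classes overlapped.

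Secreted matricellular proteins and growth factors held the largest difference among called genes, that of Thbs1. Of 29 tested members 5 were called upward, against 0.402% of all genes, and none downward. Positive differences were found in 23 and the median was 0.30. Thbs1, thrombospondin-1, was at 8.96, 9.11 and 9.12 in the high-Atf3 hearts, against 7.89, 5.44, 6.40, 5.98 and 5.97 in the other sham hearts. The 3 values were nearly equal, while cKO sham replicate 2 lay well above the rest of its class and TAC hearts reached 7.95. The difference was 2.73 ± 0.51 (SE; 6.62-fold; adjusted p = 0.0297). Ccn2, connective tissue growth factor, was at 11.38, 11.68 and 11.00 in the high-Atf3 hearts, against 10.06, 9.03, 9.45, 8.97 and 9.18 in the other sham hearts. TAC hearts spread widely, between 8.36 and 10.80, and stayed below the high-Atf3 hearts. The difference was 2.02 ± 0.38 (SE; 4.04-fold; adjusted p = 0.0297). Ccn1, the related protein Cyr61, was at 9.98, 10.46 and 9.77 in the high-Atf3 hearts, against 8.87, 8.65, 9.01, 8.96 and 8.82 in the other sham hearts, a difference of 1.21 ± 0.22 (SE). Adamts1, a secreted metalloprotease, was at 8.96, 8.43 and 8.22 in the high-Atf3 hearts, against 7.80, 6.53, 6.80, 6.92 and 6.78 in the other sham hearts, a difference of 1.57 ± 0.24 (SE). Hbegf, a ligand of the EGF receptor, was at 9.03, 8.73 and 7.96 in the high-Atf3 hearts, against 7.48, 7.27, 7.29, 6.98 and 7.50 in the other sham hearts. Its lowest high-Atf3 value fell within the TAC range, which ended at 8.01. Leaving out single hearts ended these calls. Thbs1 and Ccn2 stayed past the threshold without cKO sham replicate 2 and missed it without any one of the other 7 sham hearts. Ccn1 and Hbegf stayed past it without cKO sham replicate 2 or control sham replicate 4 and missed it in the other 6 cases, and Adamts1 missed it without cKO sham replicate 1. Within this list the 3 high-Atf3 values lay above the other 5 for 10 members, against 3.58% of all genes.

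Myocyte genes tied to stretch and actin signalling gave a mixed picture. Xirp1, an actin-binding protein of the intercalated disc, was at 11.35, 10.99 and 10.69 in the high-Atf3 hearts, against 9.45, 9.65, 9.48, 8.65 and 9.32 in the other sham hearts. No other heart passed 9.65, and the difference was 1.70 ± 0.19 (SE; adjusted p = 0.000783). Abra, an actin-binding protein of striated muscle, was at 10.89, 10.71 and 9.73 in the high-Atf3 hearts, against 8.44, 8.66, 8.39, 7.61 and 8.31 in the other sham hearts. The classes were well apart, although the highest TAC heart reached 9.68, and the difference was 2.16 ± 0.37 (SE; adjusted p = 0.0154). Xirp1 was the single call among 23 tested members of the stretch and hypertrophy list (median 0.15), which does not hold Abra. Nppb, the gene of B-type natriuretic peptide, was at 11.85, 11.92 and 11.72 in the high-Atf3 hearts, against 11.15, 11.24, 11.14, 11.30 and 10.56 in the other sham hearts. The 3 values were above all other sham hearts but within the TAC range of 9.94 to 12.06, and the difference of 0.75 did not pass (adjusted p = 0.663). The spread in that test took in the TAC hearts. Their SD for Nppb was 0.74, against 0.10 in the high-Atf3 and 0.30 in the other sham hearts. Nppa, Myh7, Acta1 and Ankrd1, genes of the fetal and hypertrophic programme, differed by 0.22, -0.01, -0.48 and -0.08, with overlapping classes and adjusted p between 0.929 and 0.999. These tests took in the TAC spread as well, which exceeded that of both sham classes for Nppa, Acta1 and Ankrd1 but not for Myh7.

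Several called genes belong to other stress systems. Single calls say little about a list, and 0.402% of all genes were called higher. Otud1, a deubiquitinase, had the smallest adjusted p among named genes. It was at 10.25, 10.51 and 9.83 in the high-Atf3 hearts, against 8.07, 7.13, 7.72, 7.13 and 7.72 in the other sham hearts. TAC hearts stayed at or below 7.63, and the difference was 2.64 ± 0.20 (SE; 6.25-fold; adjusted p = 6.58e-06). Hmox1, the haem-degrading enzyme, was at 7.10, 6.15 and 6.44 in the high-Atf3 hearts, against 5.48, 5.68, 5.64, 5.67 and 5.67 in the other sham hearts, a difference of 0.94 ± 0.15 (SE). Nfe2l2, the gene of the antioxidant regulator NRF2, was at 10.35, 10.16 and 10.12 in the high-Atf3 hearts, against 9.95, 9.49, 9.34, 9.51 and 9.26 in the other sham hearts, a difference of 0.70 ± 0.12 (SE). These were the 2 calls among 23 antioxidant and metal response genes (median 0.15). Mt2, a metallothionein, differed by 1.15 with overlap and did not pass (adjusted p = 0.46). Gadd45g, a stress sensor, was the 1 call among 18 p53 and DNA damage targets (median 0.06), at 6.34, 6.78 and 6.29 in the high-Atf3 hearts, against 5.67, 5.54, 5.58, 5.29 and 5.52 in the other sham hearts. P4ha1, a collagen prolyl hydroxylase, was the 1 call among 21 hypoxia genes (median 0.04), with a difference of 1.04 ± 0.15 (SE), while Vegfa differed by 0.15 (adjusted p = 0.71). Irs2, an insulin receptor substrate, was the 1 call among 16 FoxO targets (median 0.008), at 7.69, 7.46 and 6.93 in the high-Atf3 hearts, against 6.72, 5.82, 6.42, 5.59 and 5.94 in the other sham hearts.

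Inflammatory genes had 2 calls among 20 tested members, against 0.402% of all genes called higher, and a median of 0.25. Icam1, an adhesion molecule for leukocytes, was at 8.02, 7.27 and 7.29 in the high-Atf3 hearts, against 6.78, 6.32, 6.41, 6.59 and 6.55 in the other sham hearts, a difference of 1.00 ± 0.18 (SE). Il4ra, a receptor subunit for interleukin 4, differed by 0.74 ± 0.13 (SE), with no overlap. The oncostatin M receptor gene Osmr was at 8.85, 8.27 and 8.16 in the high-Atf3 hearts, against 7.93, 7.33, 7.49, 7.74 and 7.18 in the other sham hearts. These 3 values were the highest of the series, and its adjusted p of 0.0724 narrowly missed the threshold. The chemokine gene Ccl2 differed by 0.89 and overlapped (adjusted p = 0.183). Of 19 glucocorticoid response genes none was called, with 14 positive and a median of 0.18. Over the 20 measured members of the list, the median per heart was 0.347, 0.034 and 0.118 in the high-Atf3 hearts. It was 0.071, -0.044, -0.104, -0.071 and 0.063 in the other sham hearts, so the classes overlapped and cKO sham replicate 1 stood highest. Zbtb16, a zinc finger repressor, had the largest difference of that list, at 10.75, 10.35 and 9.99 in the high-Atf3 hearts, against 9.65, 8.57, 8.21, 8.01 and 8.70 in the other sham hearts. The classes did not overlap, and the difference of 1.74 ± 0.37 (SE) had an adjusted p of 0.0617. Fkbp5, a cochaperone of the glucocorticoid receptor, differed by 1.05 (adjusted p = 0.113).

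The 9 lower genes included 2 that act on myocyte excitability. In all 9 the high-Atf3 values lay below all other 13, against 0.761% of all genes. As for the higher genes, the lack of overlap with the other sham hearts largely follows from the choice. The lower calls rested on single hearts. Without cKO sham replicate 1, 16 probe sets were called higher and 0 lower, and the fit of the 8 sham hearts alone called 1 lower. Rrad, a small GTPase that restrains L-type calcium channels, was at 7.51, 7.26 and 8.62 in the high-Atf3 hearts, against 8.83, 9.38, 9.77, 9.32 and 9.57 in the other sham hearts. Control sham replicate 4 was the nearest to the rest, TAC hearts began at 9.09, and the difference was -1.58 ± 0.24 (SE; adjusted p = 0.00863). Kcnj2, the inward rectifier potassium channel that sets the resting potential, was at 6.13, 5.76 and 6.25 in the high-Atf3 hearts, against 6.91, 7.75, 7.50, 7.09 and 7.42 in the other sham hearts. The lowest TAC value was 6.66, and the difference was -1.29 ± 0.21 (SE; adjusted p = 0.0115). Kcnj2 was the 1 call among 18 potassium and sodium channel genes (median 0.02), against 0.0658% of all genes called lower. Akr1c14, a hydroxysteroid dehydrogenase, was at 5.61, 5.65 and 6.19 in the high-Atf3 hearts, against 6.43, 6.69, 6.96, 7.01 and 6.76 in the other sham hearts. Sox4, a developmental transcription factor, was at 5.30, 5.33 and 5.66 in the high-Atf3 hearts, against 5.99, 6.10, 6.42, 6.17 and 6.44 in the other sham hearts. These fell by 0.95 and 0.79 on the log2 scale. The other lower genes were Tet1, a methylcytosine dioxygenase, at -0.71, the zinc finger genes Zfp157 and Zfp729b at -0.51 and -0.49, the kinase adaptor Tab1 at -0.47 and the Rab regulator Tbc1d17 at -0.35. Tet1 has 3 probe sets, and the others differed by -0.49 and -0.61 and did not pass (adjusted p = 0.43 and 0.0507). Aqp7, a glycerol channel, had an adjusted p of 0.0516 at a difference of -0.75, with its 3 values also below all other 13.

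Housekeeping and energy lists held no call, which says little about them, since 0.402% of all genes were called higher and 0.0658% lower. Of 25 genes of fatty acid uptake and oxidation 4 were positive and the median was -0.06, against 48.1% of all genes positive. Per heart the list's median was -0.038, -0.178 and 0.004 in the high-Atf3 hearts. In the other sham hearts it was -0.048, 0.054, 0.104, -0.126 and 0.004, so the classes overlapped. Genes of this list that move together do not count as independent. Oxidative phosphorylation (31 genes), proteasome subunits (31), ribosome biogenesis (29), calcium handling (22), the circadian clock (18) and regulators of mitochondrial genes (15) also had none called.

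**Figure D3:**
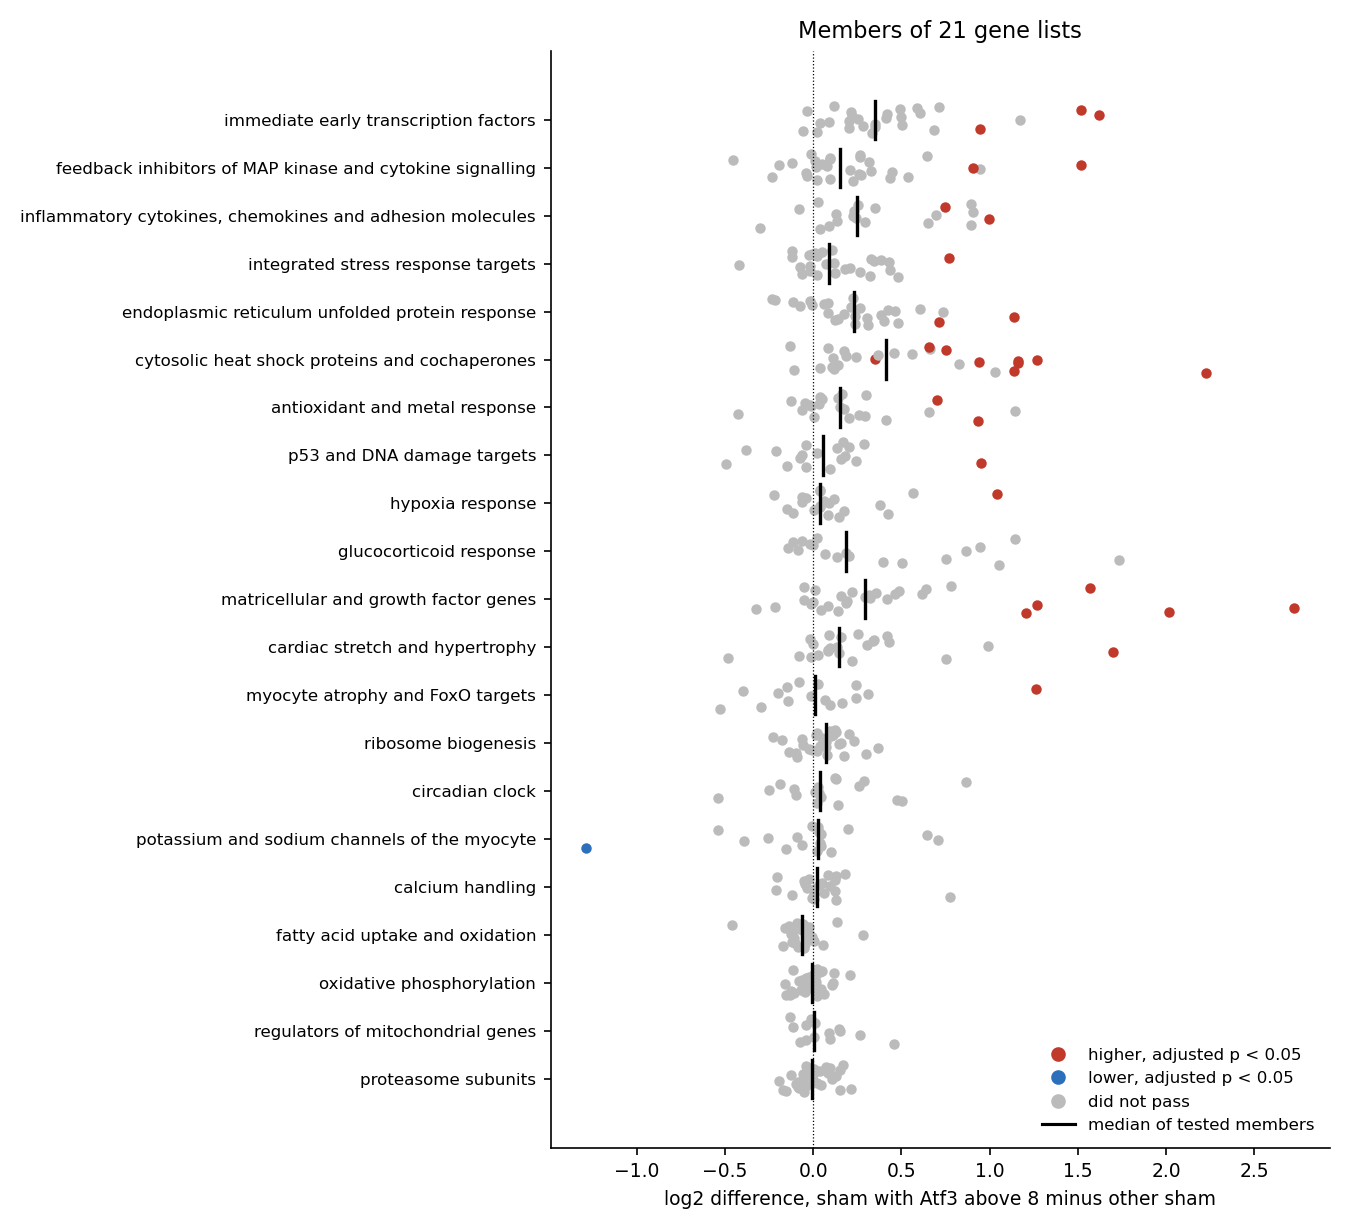
Each point is 1 tested gene of 1 of 21 lists, placed by its log2 difference (high-Atf3 hearts minus other sham hearts), with a line at the list's median; red and blue points passed the test. Heat shock, matricellular and immediate early lists have their medians farthest to the right (0.41, 0.30 and 0.35), and the metabolic lists cluster around 0.

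Within the class the 3 hearts were not alike. Relative to the mean of the other sham hearts, the 55 higher genes had a median of 1.12 in cKO sham replicate 1, 0.83 in control sham replicate 3 and 0.81 in control sham replicate 4. The first was the highest of the 3 in 34 genes, although control sham replicate 3 had the most Atf3. Outside the class, cKO sham replicate 2 stood at 0.29, the other 4 sham hearts lay between -0.15 and -0.006, and TAC hearts lay between -0.09 and 0.17. The order of lists differed too. Heat shock genes had medians of 0.49, 0.33 and 0.45 in the 3 high-Atf3 hearts, so control sham replicate 3 was the lowest, whereas matricellular genes had 0.19, 0.42 and 0.12, with the same heart the highest. The matricellular list as a whole did not separate the class, since cKO sham replicate 2 stood at 0.18 and TAC hearts reached 0.61. Heat shock medians of all other hearts were at or below 0.21. Within genotype the higher genes had a median difference of 1.08 among cKO and 1.00 among control sham hearts. The sign was fixed by the choice, since the called genes had no overlap between the classes over both genotypes. The cKO part of the class is 1 heart, so no test of single genes is given for it. Hspa1a differed by 2.70 in cKO and 2.11 in control hearts, Otud1 by 2.61 and 2.75 and Xirp1 by 1.82 and 1.86, in the same order of genotypes.

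Cell composition was read from 14 marker lists. Of all their tested members 1 was called, the macrophage and lymphatic marker Lyve1, 1 of 16 tested macrophage markers. Over all genes 0.402% were called higher and 0.0658% lower, so the lack of other calls says little about composition. Lyve1 was at 8.93, 8.23 and 8.53 in the high-Atf3 hearts, against 8.18, 7.52, 7.51, 7.75 and 7.53 in the other sham hearts. It was named after its values were seen, and its TAC values reached 8.24. The summed linear signal of 16 macrophage markers was 2970 to 3443 in the high-Atf3 hearts and 2335 to 3861 in the other sham hearts, so the sums overlapped. Fibroblast markers summed to 12620 to 15530 in the high-Atf3 hearts and 10360 to 16030 in the other sham hearts. Of 16 fibroblast markers 14 had a positive difference, with a median of 0.19, more than in the stretch, antioxidant and glucocorticoid lists. Per heart their median was 0.10, 0.38 and 0.13 in the high-Atf3 hearts, against 0.43, 0.09, -0.14, -0.05 and -0.28 in the other sham hearts. As for matricellular genes, control sham replicate 3 was the highest of its class and cKO sham replicate 2 the highest of the other, and the part of fibroblast signal in the matricellular values was not tested. Of 16 macrophage markers 12 were positive, with a median of 0.16. Endothelial markers summed to 9080 to 10700 in the high-Atf3 hearts and 9346 to 12580 in the other sham hearts, and these sums overlapped too. Of 13 measured neutrophil markers 9 did not pass the filter on low values, and the sums were 218.5 to 246.5 in the high-Atf3 hearts and 211.2 to 237 in the other sham hearts. Atrial markers summed to 5969 to 8917 in the high-Atf3 hearts and 4338 to 8587 in the other sham hearts, within the TAC range of 3684 to 17190. The atrial light chain gene Myl7 was above 6 in control sham replicate 3 and in cKO sham replicate 2, 1 heart of each class, and 60 probe sets were called without all hearts above that level. The part of cell composition in the differences was not tested further, and in whole tissue a change in the number of cells of a type and in RNA per cell cannot be told apart.

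The 8 TAC hearts took no part in the choice of the classes. Over them Atf3 spanned 0.64, and a slope of each gene on Atf3 with genotype as a covariate was fitted. The highest value, 6.79, was that of control TAC replicate 4, against 6.20, 6.15 and 6.36 in the other control TAC hearts. That heart weighs on every slope. No probe set was called (0.0% of 21332), 812 had an unadjusted p under 0.05, and the smallest adjusted p was 0.464. Of the 55 higher genes 45 had a positive slope, against 56.4% of all genes, and their median slope was 0.27, against 0.04 over all genes. Of the 9 lower genes 4 had a negative slope and the median was 0.01. Marker lists of cell types moved over these hearts too. All 16 macrophage markers had a positive slope, with a median of 0.56. Median slopes were 0.35 for endothelial and 0.16 for fibroblast markers, and the lowest was -0.44, for atrial markers. In control TAC replicate 4 the macrophage median was 0.75 above the other sham mean. The other control TAC hearts had 0.235, 0.217 and 0.124. The part of cell composition in the slopes was not tested. The tallies were not tested, since genes that move together do not count as independent. Ccn2 had a slope of 0.84 ± 1.05 and Thbs1 of 0.47 ± 1.24, wider in error than in size, while Jun had 0.52 ± 0.20, Slc38a2 0.57 ± 0.23 and Irs2 0.74 ± 0.38 (SE). None of these passed. The 5 genes of smallest p in this fit were Nxpe4 at -2.47, Gdpd3 at 6.12, Gm5617 at 2.09, Irs1 at 1.04 and Cfap54 at -0.81, and all of them overlapped between the sham classes. In control TAC replicate 4, Nxpe4 and Cfap54 had their lowest TAC value and Gdpd3 and Gm5617 their highest.

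**Figure D4:**
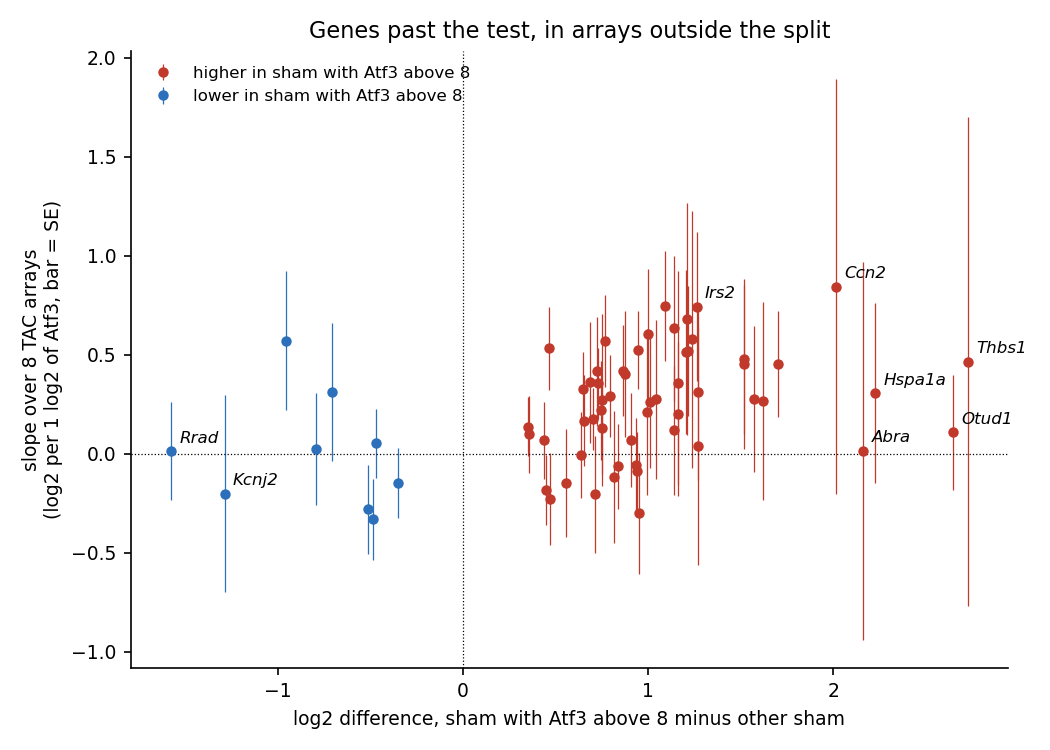
Each point is 1 of the 64 called genes, with the log2 difference between high-Atf3 and other sham hearts on the horizontal axis and the slope on Atf3 over the 8 TAC hearts on the vertical axis (log2 per 1 log2 of Atf3; bars are SE). Of the red points (higher genes) 45 of 55 lie above 0, with bars that are widest for Thbs1 and Ccn2, and the 9 blue points (lower genes) lie on both sides.

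The promoter letters shown for the 6 genes were then counted over all genes. Of the 55 higher genes 42 had a RefSeq window of 250 bases, and 10 of these held a heat shock element in either spelling (23.8%), against 12.8% of 32851 promoters and 12% of those of tested genes. They were Art3, Ccn1, Dnaja1, Dnajb4, E030011O05Rik, Hspa1a, Hspb1, Hsph1, Itga5 and Jun, of which Art3, E030011O05Rik and Itga5 are named for the motif alone. The ATF/CREB core site was in 15 of the 42 (35.7%), against 28.8% of tested genes and 17.8% of all promoters. The full site TGACGTCA, which contains the core site, was in 3, against 2.85% of tested genes. The AP-1 site TGANTCA was in 2 (4.76%), against 5.66% of tested genes, the CArG box in 2, against 1.45%, and the C/EBP-ATF composite TGATGNAAT in none, against 0.46%. Of the 5 lower genes with a window, Tet1 held a heat shock element and none held the core site. These are counts of letters in a short window and were not tested.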

How the data were processed

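The deposited values were log2 expression per probe set on Affymetrix Mouse Gene 1.0 ST arrays, 1 per mouse. The submitters' processing notes name MAS5, and its role and version are not given in the sources used here. Array quartiles nearly coincide (25th percentile 3.73 to 3.85, 75th 6.82 to 6.93), so a change in total signal per array would not be seen. Arrays differed pairwise in at least 97.4% of probe sets. Groups came from titles. Of 35556 probe sets 21789 have 1 gene symbol, 1621 several and 12146 none listed; 21698 matched RefSeq genes (GRCm38.p6).

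Probe sets with a mean above the 40th percentile (4.37) were kept, 21333 with Atf3. limma 3.58.1 in R 4.3.3 fitted 4 classes (high-Atf3 sham, other sham, control TAC, cKO TAC; 12 residual degrees of freedom) with empirical Bayes and a mean-variance trend. Tests were two-sided with Benjamini-Hochberg adjustment over 21332 probe sets and a threshold of 0.05. The TAC slope had 5 residual degrees of freedom. A gene was read from its probe set of highest mean. The members and all gene lists were chosen with earlier results of these data known. Text names the 12 largest rises and 10 largest falls (falls filled by smallest p), the 3 members of smallest p per list, key genes and 5 genes of the slope, with exceptions stated. Alternatives covered scaling, filter, trend, weights, covariates, threshold and single hearts; fits were tested on simulated data. The number of arrays limits precision. Figures were drawn with matplotlib 3.10.9.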

Additional observations from a re-analysis of the deposited data

Results flagged for a closer look

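In groups of 4, single hearts stood far from the other 3 in 25 of 404 gene and group pairs examined, and 13 of the 25 were in cKO sham replicate 1, the one high-Atf3 heart of its group. Chance flags about 1 in 20, but most of these genes were named for their difference between the sham classes, so that heart had to stand apart in many of them and the tally cannot be read against that rate. In cKO sham replicate 1 the highest values were Abra at 10.89 (others 8.39 to 8.66), Xirp1 at 11.35 (9.45 to 9.65), Hspa1a at 8.99 (6.07 to 6.56), Hsp90aa1 at 11.38 (10.07 to 10.21), Hmox1 at 7.10 (5.48 to 5.68), Hbegf at 9.03 (7.27 to 7.48) and Gadd45g at 6.34 (5.54 to 5.67). Its values of genes that did not pass the test were Rcan1 at 10.55 (others 8.99 to 9.20), Nfil3 at 7.83 (5.83 to 5.97), Nppb at 11.85 (11.14 to 11.24) and Dusp8 at 8.81 (8.14 to 8.21). It was the lowest for Kcnj5 at 8.08 (8.46 to 8.53) and Zfp729b at 6.36 (6.82 to 6.89). Rcan1 is a calcineurin target and Nfil3 a clock-linked repressor.

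Elsewhere among sham hearts, Bhlhe40 was highest in control sham replicate 4, a high-Atf3 heart, at 7.75 (others 7.03 to 7.05), Cfap54 in control sham replicate 1 at 5.17 (4.73 to 4.77) and Gdpd3 in cKO sham replicate 2 at 6.89 (4.06 to 4.42). Mt2 was lowest in control sham replicate 1 at 8.01 (9.25 to 9.29). Among TAC hearts, control TAC replicate 4 was high in Gdpd3 at 8.75 and Nfil3 at 6.07, control TAC replicate 3 in P4ha2 at 6.57, cKO TAC replicate 1 in Tab1 at 6.48 and cKO TAC replicate 4 in Zfp157 at 5.57. Low values were Dusp1 at 8.64 in cKO TAC replicate 3, Ier5 at 5.36 in cKO TAC replicate 4 and Tet1 at 6.84 in cKO TAC replicate 2.

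For 2 genes the high-Atf3 minus other sham difference had opposite signs within the genotypes, with no overlap in either. Gm5617 differed by -0.35 in cKO and 0.53 in control hearts, and Trdn, a junctional protein of the calcium release complex, by -0.03 and 0.20. The cKO side was 1 heart, cKO sham replicate 1, and it lay barely outside the other cKO sham hearts. There Gm5617 was at 6.94, against a lowest other value of 6.96, and Trdn at 11.81, against 11.82. The difference between genotypes was not tested.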

How the results depend on the processing

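The count of 76 called probe sets was 25 in a fit of the 8 sham hearts alone, 125 with array weights, 16 among control and 11 among cKO sham hearts, and 1 (lower) with the threshold of Atf3 at 9, which leaves 2 hearts in the class. Leaving out each sham heart gave 16 to 146. The fit among cKO sham hearts had 1 high-Atf3 heart against 3 others. Its count therefore describes that heart and was not read as a test. In fits with fewer arrays or another class the samples differ by construction, and for array weights the cause was not tested. Centring on medians (65), quantile normalization (76), no trend (78), a stricter low-value cut-off at the 60th percentile (88), none at all (56), genotype as a covariate (111), Atf3 as a continuous predictor (103), no hearts with Myl7 above 6 (60, of which 43 were shared) and 1 probe set per gene (102) gave counts within 1.5 times of it. Of the 64 called genes 34 were still called without the hearts with Myl7 above 6. The replicate number as a block gave 71 calls, 55 of them shared, with 54 higher and 17 lower, so that 76.1% were higher, against 86.8%. Same-numbered arrays did not deviate together over the kept probe sets (median correlation -0.03, -0.21 to 0.19 over 24 pairs). Of 16 arrays 3 correlated best with their own number. A pairing that touched few genes would not show in these correlations. The 12 genes called whichever sham heart was left out were Dnaja1, Dnajb4, Gadd45g, Hmox1, Hspa1a, Hspb1, Ier5, Jun, Myc, Otud1, Serpinh1 and Xirp1. The slope over TAC hearts had 0 limma calls in all 12 alternatives run, the replicate block included, with 657 to 1562 probe sets at an unadjusted p under 0.05. Low signal limits 9 of 13 neutrophil markers.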

Other observations

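Several called genes lay outside the lists. Cmklr1, the receptor of the chemoattractant chemerin, was at 7.71, 7.80 and 7.53 in the high-Atf3 hearts, against 6.83, 6.19, 6.44, 6.37 and 6.40 in the other sham hearts. Gfpt2, which opens the hexosamine pathway, was at 8.38, 7.94 and 8.12 in the high-Atf3 hearts, against 7.57, 6.77, 6.77, 6.84 and 6.76 in the other sham hearts, and Bcl6, a transcriptional repressor, at 7.19, 7.76 and 7.63 in the high-Atf3 hearts, against 6.56, 6.37, 6.87, 6.21 and 6.18 in the other sham hearts. Tlr4, the receptor for bacterial lipopolysaccharide, was at 8.22, 7.99 and 7.87 in the high-Atf3 hearts, against 7.44, 7.29, 7.29, 7.13 and 7.24 in the other sham hearts. The 4 differences were 1.23, 1.21, 1.09 and 0.75, with no overlap between the sham classes. These 4 genes were chosen after their values were seen.

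Adamts9, a metalloprotease gene with 6 probe sets, had differences of 0.54 to 0.91 across them. The probe set of highest mean did not pass (adjusted p = 0.157), while another, at 0.77, did (adjusted p = 0.0306). Of the 76 called probe sets 71 carry 1 gene symbol, 1 carries several and 4 carry none. The one with several symbols had a difference of 2.67, next to that of Thbs1 in size, and is not named.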
